A study of Mus musculus with 21 samples.

Results

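Cells with bright green fluorescence from an Lgr5 reporter (Lgr5GFP high cells) were sorted from the mouse stomach corpus, and their RNA was compared between mice injected with tamoxifen and uninjected controls. The comparison rests on 7 of the series' 21 arrays, 4 from tamoxifen mice (titled Inj High) and 3 from control mice (titled Uninj High), chosen by those titles, and it is described across the 22180 genes tested. Tamoxifen was given at 0.27 mg per g of body weight and the cells were isolated 24 hours later. The controls' treatment is labelled none and there was no group injected with vehicle, so drug, injection and sorting run cannot be told apart. The other 14 arrays hold Lgr5GFP low and Lgr5GFP negative cells of the corpus, each again with 4 tamoxifen and 3 control arrays. Beyond the reporter and the dose, the labels give no strain, allele or age. The design text calls the replicates technical and assigns them to individual cell sorts. Separate animals are thus not stated, and p-values measure only the spread between these samples.

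Lgr5 encodes a receptor for R-spondins, secreted proteins that strengthen Wnt signalling. In the corpus it marks a subset of chief cells, the zymogenic cells at the gland base that make pepsinogen and gastric intrinsic factor. High doses of tamoxifen are known to injure acid-secreting parietal cells in mice. After such injury chief cells can shrink their secretory machinery and take up mucus and wound-response genes, a state called metaplasia. Proteins bound for secretion are folded in the endoplasmic reticulum by chaperones and disulfide isomerases, and the transcription factor Bhlha15 (Mist1) scales up this secretory apparatus in chief cells.

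The sorted cells carried their label. The Lgr5 level, on the log2 scale used for every level below, was 8.40, 8.80 and 9.15 on control arrays 1 to 3 and 8.05, 8.42, 8.74 and 8.53 on tamoxifen arrays 1 to 4. The groups overlapped, and the difference of -0.35 ± 0.21 (tamoxifen minus control, SE from the model) did not pass the test (adjusted p = 0.42). In the control low and negative groups the mean Lgr5 levels were 7.56 and 4.41. Pgc, the pepsinogen gene, lay between 13.14 and 13.43 on all 7 high arrays, and Cblif, gastric intrinsic factor, between 12.23 and 12.77. Neither differed by the test, at 0.03 ± 0.12 for Pgc and -0.16 ± 0.17 for Cblif. The highest value of any probe set on any array was 13.55, so a change in Pgc could be compressed near the top of the scale.

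The high cells also held RNA of other cell types. Dclk1, which defines tuft cells, averaged 11.24 in control high cells against 9.67 in low and 7.33 in negative cells. Muc6, the mucin of mucous neck cells, ran from 8.58 to 11.84 on the 7 high arrays, and Gast, the gastrin gene of endocrine cells, read 12.66 on tamoxifen array 1, 10.43 and 12.04 on control arrays 2 and 3 and 5.15 to 5.54 on the others. The endothelial marker Cdh5 (2.86 to 3.58) and the fibroblast marker Col1a1 (3.94 to 4.45) stayed near background, taken here as 4.31, a level that 95% of the values of olfactory receptor genes on these arrays do not pass. Of 12 endothelial and 14 fibroblast and smooth muscle markers, 4 and 6 had a mean above it in control or tamoxifen high cells. Tek, an endothelial marker, averaged 7.25 in control high cells, against 4.96 in low and 3.93 in negative cells. Its mean was 5.49 on the tamoxifen high arrays. By the test described below it was the 1 called gene of the 12. That call was lost without tamoxifen array 1 or control array 1 (adjusted p 0.10 to 0.23). In such bulk samples, fewer cells of a type and less RNA per cell cannot be told apart.

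Tamoxifen moved 606 of the 22180 genes past the threshold in high cells, 2.73% of those tested, with 376 higher (1.7%) and 230 lower (1.04%). The test was limma's moderated test on all 21 arrays, two-sided, with a gene called when its Benjamini-Hochberg adjusted p was under 0.05. The called genes had a median change of 1.05 in size, and 335 of them changed at least 2-fold. Over all genes the median change was 0.00. Counts of called members in the gene lists below stand beside the share of 2.73%, and the lists were chosen with earlier results known. For 2303 genes (10.4%) the 4 tamoxifen and 3 control arrays did not overlap, 536 of the called genes among them.

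Single arrays decided much of this count. It fell to 335, 338, 215 and 236 without tamoxifen arrays 1 or 2 or control arrays 1 or 2, and rose to 1702 without tamoxifen array 4, 593 of the 606 among them. Without tamoxifen array 3 it was 636 and without control array 3 it was 536. Fitted on the 7 high arrays alone, with 5 residual degrees of freedom, the test called 12 genes: Anxa3, Blm, D17H6S56E-5, Dmbt1, Mmp7, Rcan1, S100a6, Sprr1a, Tinag, Tnip3, Vtcn1 and Zyx. Called genes numbered 124 in every leave-one-out fit, 87 higher and 37 lower. A called gene named below without remark is one of these, and for any other the arrays without which it lost its call are given.

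**Figure D1:**
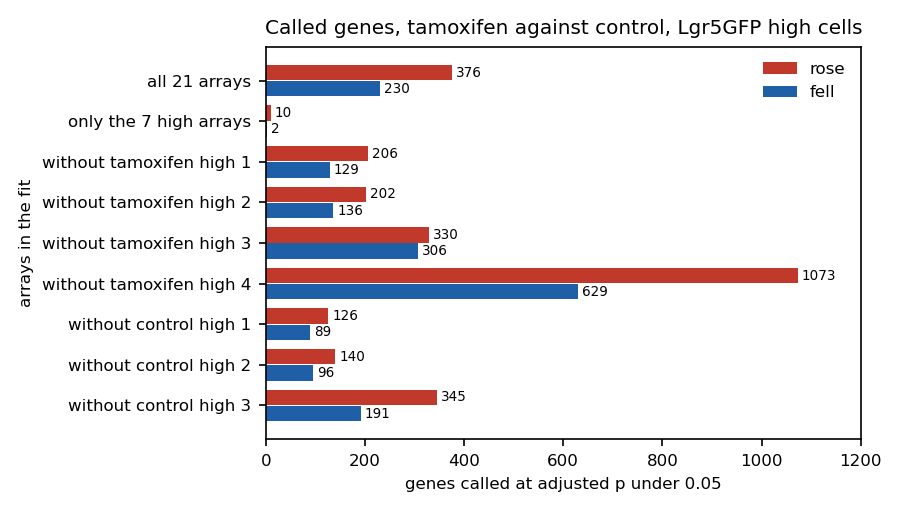
Genes called in the Lgr5GFP high cells (horizontal axis, bars for genes that rose and genes that fell) with all 21 arrays, with only the 7 high arrays and with each high array left out. The bars are longest without tamoxifen array 4 (1073 rose and 629 fell) and, among the leave-one-out fits, shortest without control array 1 (126 and 89).

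Tamoxifen array 4 lay nearest the controls. Among the 376 genes that rose it was the lowest of the 4 tamoxifen arrays for 247 (65.7%), against 41, 32 and 56 for arrays 1, 2 and 3. Among the 230 that fell it was the highest for 119 (51.7%). Lyz1, the Paneth cell lysozyme, shows this most plainly, with 10.62, 10.82 and 10.67 on tamoxifen arrays 1 to 3, 4.75 on array 4 and 4.70, 4.71 and 5.08 on the controls. Its rise of 4.39 ± 1.16 (adjusted p = 0.045) kept its call only when array 4 was the one left out, with adjusted p from 0.084 to 0.14 in the other fits. Lyz1 has a near-identical neighbour, Lyz2 (3.27 to 5.83 on the tamoxifen arrays), and signal between the pair may be shared. The median SD of a gene was 0.31 over the tamoxifen high arrays, the largest of all groups, and 0.21 over the control high arrays. It was 0.21 and 0.15 over control low and negative arrays and 0.24 over tamoxifen low and over tamoxifen negative arrays. The main fit shares its spread of a gene over all groups, so its SE can be too small for the tamoxifen high arrays. Pairs of arrays correlated at 0.944 to 0.961 within the tamoxifen high group and at 0.967 to 0.983 within the control high group (across genes).

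Genes of epithelial injury and barrier defence led the rise. Sprr1a, a cornified envelope protein induced in stressed epithelia, was at 4.19, 4.23 and 4.30 on the controls, all at background, and at 9.81, 8.33, 8.54 and 9.16 on tamoxifen arrays 1 to 4. No array of one group came near the other, and the rise was at least 25.1-fold (4.72 ± 0.35, adjusted p = 1.9e-07). Mmp7, matrilysin, a protease of wounded epithelium, went from 3.85, 3.75 and 3.90 to 8.03, 8.16, 8.33 and 6.95, at least 11.8-fold (4.04 ± 0.30, adjusted p = 1.9e-07). Dmbt1, a secreted scavenger receptor protein that binds bacteria, stood at 4.23, 5.39 and 5.95 on the controls and at 10.55, 10.45, 10.24 and 8.88 after tamoxifen. Its 28.7-fold difference (4.84 ± 0.49, adjusted p = 1.4e-05) left every tamoxifen array far above every control.

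S100a6, a calcium-binding protein of proliferating and stressed cells, was 7.29, 5.67 and 7.53 in controls and 12.05, 10.38, 10.79 and 10.54 after tamoxifen (4.11 ± 0.42, 17.3-fold). Anxa3, a calcium-dependent phospholipid-binding protein, rose at least 6.48-fold, from 4.08, 3.98 and 3.72 to 7.76, 7.22, 6.71 and 6.35. For both genes the groups were well apart, and lack of overlap was a condition for a place among the largest rises. In the list of 23 S100 and annexin genes, 4 rose and none fell, with a median change of 0.48 and 2 calls without tamoxifen array 2 or control array 2. Members did not move alike: Anxa1 differed by -0.29 ± 0.41 and Anxa2 by 0.68 ± 0.32, neither past the threshold. S100a11 rose by 1.03 and Anxa7 by 0.75, but S100a11 lost its call without tamoxifen array 2 or control arrays 2 or 3 (adjusted p 0.057 to 0.075), and Anxa7 without tamoxifen arrays 1 or 2 or control arrays 1 or 2 (0.070 to 0.12).

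Keratins of simple and ductal epithelia divided. Krt19 rose by 2.53 ± 0.32, from 4.82, 6.22 and 6.48 to 8.85, 8.59, 8.31 and 7.75. Krt7 rose by 1.39 ± 0.23. Krt8 and Krt18, the partners that all simple epithelia carry, differed by -0.04 ± 0.14 and -0.37 ± 0.18 and were not called. Cdh1 and Epcam, the general epithelial adhesion molecules, were not called either, at 0.08 ± 0.13 and -0.19 ± 0.17. Among 20 cornified envelope and keratin genes 2 rose, Sprr1a and Krt7, and none fell.

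Of 22 metaplasia and injury genes, 7 rose and none fell, with a median change of 0.95. Beside Dmbt1 and Mmp7 the list held Clu, the secreted chaperone clusterin, which was high already. Clu stood at 11.07, 10.75 and 11.06 in controls and 12.09, 12.09, 12.06 and 11.92 after tamoxifen, the smallest SE of the 7 (1.08 ± 0.14). Cd14, the co-receptor for bacterial lipopolysaccharide, rose by 2.36 ± 0.36. Reg3g, an antibacterial lectin, rose by 2.79 ± 0.60 and lost its call without tamoxifen array 1 or control array 1 (adjusted p 0.051 to 0.10). Pigr, which carries IgA into the lumen, rose by 1.84 with overlapping arrays and lost its call without control arrays 1 or 2 (0.084 to 0.095). Cd44, a hyaluronan receptor used as a metaplasia marker, ran from 6.80 to 10.24 after tamoxifen and from 6.40 to 7.97 in controls and was not called (adjusted p = 0.36). Leaving out single arrays gave 5 to 9 calls in this list, the fewest without tamoxifen array 1 or control array 1.

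**Figure D2:**
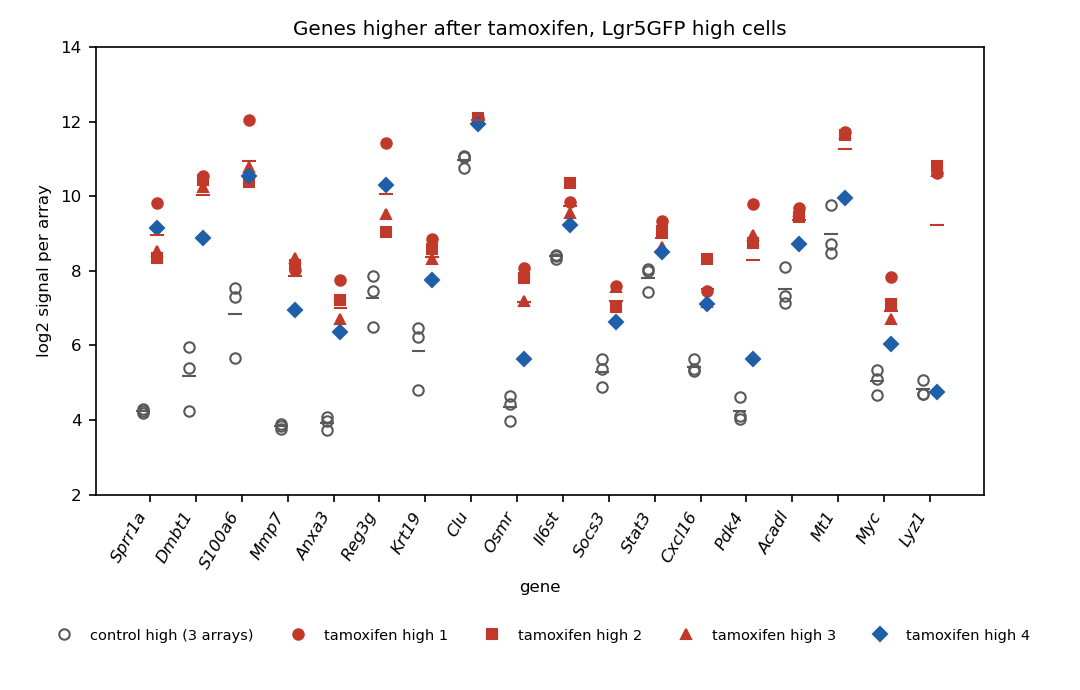
Log2 level (vertical axis) of genes that rose in Lgr5GFP high cells, 1 point for each of the 4 tamoxifen and 3 control arrays and a bar for each group mean. Sprr1a and Mmp7 left the background of 4.31, and tamoxifen array 4 is the lowest of its group for Mmp7, Dmbt1 and Pdk4.

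The promoter windows of Sprr1a and Mmp7 are shown because both hold the AP-1 site of Fos and Jun factors. A window runs from 250 bases before to 50 bases after the RefSeq transcript start (GRCm38.p6), each is printed 5′ to 3′ on the gene's strand, and the AP-1 letters TGANTCA are in capitals. Sprr1a lies at chr3:92485832-92486131 on the minus strand, with matches starting 146 and 116 bases before the start. Mmp7 lies at chr9:7691840-7692139 on the plus strand, with a match at 63 bases before the start, and is the 1 of 2 Mmp7 windows that holds the letters.
Sprr1a: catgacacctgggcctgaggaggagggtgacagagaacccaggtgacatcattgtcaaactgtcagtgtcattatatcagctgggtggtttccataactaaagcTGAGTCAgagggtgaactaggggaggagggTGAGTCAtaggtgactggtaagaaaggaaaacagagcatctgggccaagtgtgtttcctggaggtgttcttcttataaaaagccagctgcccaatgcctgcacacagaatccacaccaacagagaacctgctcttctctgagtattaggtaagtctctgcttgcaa
Mmp7: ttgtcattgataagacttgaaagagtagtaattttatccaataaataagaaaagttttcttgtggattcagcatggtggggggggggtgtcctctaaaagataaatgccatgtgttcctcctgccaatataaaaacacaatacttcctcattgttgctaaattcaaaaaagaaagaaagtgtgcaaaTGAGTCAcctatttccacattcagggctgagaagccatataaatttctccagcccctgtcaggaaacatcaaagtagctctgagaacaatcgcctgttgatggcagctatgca
RefSeq windows matched 16990 of the 22180 genes. AP-1 letters, which read the same on both strands, were present for 8.42% of these, for 12.1% of the 280 rising genes with a window and for 5.29% of the 170 falling ones. A match is a string of letters and not evidence of binding.

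Actin-binding and adhesion genes rose in part. Zyx, zyxin, a focal adhesion protein, was 6.60, 6.25 and 6.65 in controls and 7.99, 8.26, 8.15 and 7.90 after tamoxifen (1.58 ± 0.18, adjusted p = 5.3e-05), groups that did not overlap. Flna, filamin A, which crosslinks actin, rose at least 3.46-fold (1.94 ± 0.27). In the list of 28 actin and adhesion genes 4 rose and none fell (median 0.31), with 2 calls without control array 2. Further genes among the top rises were Sulf2, which trims heparan sulfate outside cells (2.85 ± 0.44), Scara3, a scavenger receptor (2.82 ± 0.35), and Vtcn1, an inhibitory ligand for T cells (2.54 ± 0.34). Ace, angiotensin-converting enzyme, rose by 2.69 ± 0.65 but lost its call without tamoxifen arrays 1 or 2 or any 1 of the control arrays (adjusted p 0.074 to 0.10).

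In interleukin-6 family signalling, the receptor genes Osmr and Il6st and the feedback gene Socs3 rose. Osmr, the oncostatin M receptor, was 4.43, 3.98 and 4.65 in controls and 8.07, 7.80, 7.18 and 5.63 after tamoxifen (2.81 ± 0.42, adjusted p = 0.0011). Its signalling partner Il6st (gp130) was 8.40, 8.32 and 8.43 and then 9.83, 10.37, 9.56 and 9.22 (1.36 ± 0.23). Socs3, which shuts the pathway off and is itself induced by STAT3, was 5.64, 4.88 and 5.37 and then 7.58, 7.02, 7.56 and 6.63 (1.90 ± 0.36). For these 3 genes no tamoxifen array overlapped a control, which for Osmr was a condition for its place among the largest rises. Stat3 itself rose by 1.07 ± 0.26 and lost its call without tamoxifen arrays 1 or 2 or control arrays 1 or 2 (adjusted p 0.078 to 0.17). In the list of 24 STAT3 and acute phase genes, 6 rose, none fell and 22 lay above 0, with a median of 0.59. With single arrays left out the list had 4 to 8 calls, the fewest without tamoxifen array 1 or control array 1.

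Socs3 is the gene of this group whose promoter window is shown, because it holds the STAT site TTCNNNGAA, in capitals, at 154 bases before the start. It lies at chr11:117969317-117969616 on the minus strand (GRCm38.p6, RefSeq).
Socs3: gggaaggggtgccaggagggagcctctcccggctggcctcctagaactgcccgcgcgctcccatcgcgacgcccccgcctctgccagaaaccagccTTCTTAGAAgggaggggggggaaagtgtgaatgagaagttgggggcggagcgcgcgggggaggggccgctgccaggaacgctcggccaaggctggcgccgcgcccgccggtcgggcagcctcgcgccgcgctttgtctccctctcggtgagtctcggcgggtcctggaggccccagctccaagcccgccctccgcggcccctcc
These letters, the same on both strands, were found for 9.15% of all genes with a window and for 11.1% of the rising genes.

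Of the NF-kB and cytokine genes, Tnip3, Cxcl16, Bcl3 and Tlr4 rose. Tnip3, which restrains NF-kB, was at background in controls (3.81, 3.75 and 3.27) and at 5.78, 7.63, 6.84 and 7.63 after tamoxifen, at least 6.3-fold higher. Cxcl16, a membrane-bound chemokine, went from 5.30, 5.63 and 5.36 to 7.47, 8.32, 7.16 and 7.11 (2.08 ± 0.29). Bcl3, an atypical NF-kB cofactor, rose by 1.68 ± 0.31. The groups were apart for all 3, which for Tnip3 was a condition for its place among the largest rises. Of 38 NF-kB and cytokine genes 6 rose and none fell (median 0.36, 4 to 8 calls with single arrays left out, the fewest without tamoxifen arrays 1 or 2 or control arrays 1 or 2). Tlr4, the lipopolysaccharide receptor, rose by 1.15 ± 0.28 and lost its call without tamoxifen arrays 1 or 2 or any 1 of the controls (adjusted p 0.064 to 0.12).

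Markers of immune cells were measured beside these genes. None of 17 was called by limma (3 at an unadjusted p under 0.05, 1 with array weights, 2 without tamoxifen array 4), and their mean level was 3.81 to 4.13 on the tamoxifen arrays and 3.90 to 4.17 on the controls. Cd68, of macrophages, was 5.21 to 6.25 against 4.71 to 5.35 (0.70 ± 0.24, adjusted p = 0.13). Ptprc, the common leukocyte antigen that tuft cells can also express, was 4.54, 5.64, 7.89 and 8.86 after tamoxifen and 9.80, 9.10 and 8.25 in controls. Its difference of -2.32 ± 0.71 did not pass (adjusted p = 0.085), and arrays 1 and 2 carried most of it.

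Counts of called immediate early and growth factor genes depended heavily on single arrays. Of 28 immediate early genes 8 rose and none fell (median 0.65), but the count was 1 without tamoxifen array 2 or control array 2 and 11 without tamoxifen array 4. Junb, an AP-1 subunit, rose by 0.94 ± 0.23 and lost its call without tamoxifen array 2 or any 1 of the controls (adjusted p 0.066 to 0.12). Erbb2, the receptor tyrosine kinase that pairs with EGFR, rose by 1.36 ± 0.26, from 5.91, 5.82 and 6.59 to 7.83, 7.39, 7.87 and 6.79, and missed the threshold only without control array 2 (0.054). Egf, the ligand, fell by 1.42 and lost its call without control arrays 1 or 2 (0.056 to 0.093). In the list of 26 EGFR ligand and MAPK feedback genes 3 rose and 1 fell, with 0 calls without control array 2 and 7 without tamoxifen array 4. Ifitm3, an antiviral membrane protein, was the 1 called gene of 27 interferon response genes, up by 1.14 ± 0.25, and lost its call without control arrays 1 or 2 (0.052 to 0.082). The mean level of that list was 5.22 on tamoxifen array 1, 6.45 to 6.64 on arrays 2 to 4 and 5.20 to 6.07 on the controls, so array 1 lay with the controls here.

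**Figure D3:**
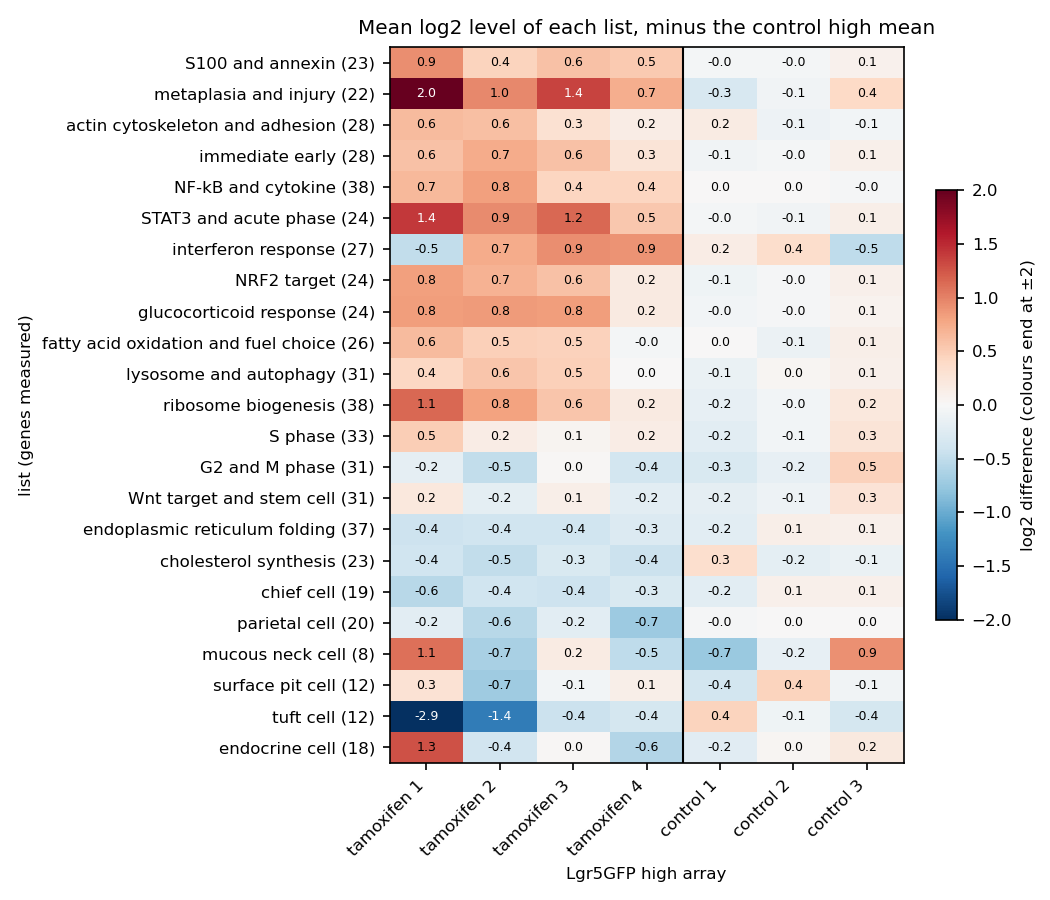
Mean log2 level of the measured genes of each list (rows, gene numbers in brackets) on each of the 7 Lgr5GFP high arrays (columns), as the difference from the mean of the 3 control arrays, in colours that end at 2 in either direction. Injury, STAT3 and ribosome biogenesis lists are above 0 on all 4 tamoxifen arrays, endoplasmic reticulum folding below 0 on all 4, and tamoxifen array 1 stands out in tuft, mucous neck and endocrine markers.

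Fuel-use genes rose in part. Pdk4, the kinase that blocks pyruvate entry into the citrate cycle, was at background or just above it in controls (4.11, 4.61 and 4.03) and at 9.80, 8.74, 8.95 and 5.64 after tamoxifen, at least 15.7-fold higher (4.04 ± 0.76, adjusted p = 0.0066). Array 4 lay well below the other tamoxifen arrays, though above every control. Acadl, a mitochondrial acyl-CoA dehydrogenase, rose by 1.84 ± 0.25, from 7.13, 7.33 and 8.11 to 9.69, 9.45, 9.61 and 8.71. Acot1, a cytosolic acyl-CoA thioesterase, rose by 2.05 ± 0.37. Of 26 fatty acid oxidation and fuel choice genes 4 rose and none fell (median 0.30), with 3 calls without tamoxifen array 2 or control arrays 1 or 2 and 11 without tamoxifen array 4. None of 21 glycolysis genes was called by limma (1 without tamoxifen array 4), and 3 had an unadjusted p under 0.05.

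The metallothioneins Mt1 and Mt2 were the 2 called genes of 25 for iron and copper handling, and both rose (1 call without tamoxifen arrays 1 or 2 or control arrays 1 or 2, 4 without tamoxifen array 4). Mt1, a metallothionein that buffers zinc and copper, was 8.49, 8.73 and 9.76 in controls and 11.71, 11.65, 11.70 and 9.96 after tamoxifen (2.26 ± 0.38). Arrays 1 to 3 were nearly identical and array 4 was close to the highest control. Its near-identical neighbour Mt2 rose by 2.21 ± 0.50 with overlapping arrays and lost its call without tamoxifen arrays 1 or 2 or control arrays 1 or 2 (adjusted p 0.056 to 0.13); probes may share signal between the pair. With Pdk4, the metallothioneins were the 3 called genes of 24 glucocorticoid response genes (median 0.49). Ephx1, microsomal epoxide hydrolase, rose by 1.70 ± 0.26, from 5.76, 5.51 and 5.18 to 7.33, 7.78, 7.27 and 6.37. In the NRF2 target list 4 of 24 rose and none fell (median 0.61), 2 to 8 with single arrays left out, the most without tamoxifen array 4 and the fewest without tamoxifen arrays 1, 2 or 3 or control arrays 1 or 2. Of 35 cytochrome P450 and conjugation genes 3 rose, 1 without control array 1. Cyp3a13 rose by at least 3.36-fold and lost its call without control array 1 (0.084). Cyp2b10, a drug-induced P450, rose from background (2.51 to 2.65) to 4.18, 6.02, 4.74 and 4.04, which straddles background, and lost its call without tamoxifen array 2 or any 1 of the controls (0.063 to 0.10).

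Of the lysosome genes, Lamp2 and Ctsl were among 4 that rose. Lamp2, a lysosomal membrane protein, rose by 1.02 ± 0.17 and Ctsl, the protease cathepsin L, by 1.32 ± 0.24. For Ctsl the tamoxifen levels were 9.48, 9.67, 9.55 and 8.94 and the control levels 7.69, 8.42 and 8.15. In the list of 31 lysosome and autophagy genes 4 rose and none fell (median 0.22), with 2 calls without tamoxifen array 1 or any 1 of the controls and 8 without tamoxifen array 4. Car8, a carbonic anhydrase-related protein, rose by 1.62 ± 0.25.

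Ribosome-making genes lay above 0 without exception. All 38 measured members had positive differences, from 0.10 to 1.41 with a median of 0.66, against 0.00 over all genes, and 6 were called. The mean level of the list was 7.38, 7.04 and 6.79 on tamoxifen arrays 1 to 3 and 6.42 on array 4, which fell within the control range of 6.07 to 6.46. The called count was 0 without tamoxifen array 1 or control arrays 1 or 2 and 21 without tamoxifen array 4. Ncl, nucleolin, rose by 0.83 ± 0.19, from 9.34, 9.25 and 9.54 to 10.75, 10.18, 9.997 and 9.88, and lost its call in those 3 fits (adjusted p 0.064 to 0.10).

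Myc, the transcription factor that drives ribosome production, was 4.68, 5.11 and 5.34 in controls and 7.83, 7.10, 6.71 and 6.03 after tamoxifen. The groups did not overlap and the rise was 1.88 ± 0.30 (adjusted p = 0.0018). Among 29 Myc and growth genes 3 rose and 1 fell (median 0.10), with 1 call without tamoxifen array 1 or control arrays 1 or 2 and 7 without tamoxifen array 4. Its antagonist Mxd1 fell by 1.22, a call lost without tamoxifen array 1 or control arrays 1 or 2 (0.058 to 0.14).

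Cell division genes were not called. None of 33 S phase genes (median 0.14) and none of 31 G2 and M phase genes (median -0.20) was called by limma, and at an unadjusted p under 0.05 there were 5 and 0. Mki67 ran from 4.70 to 5.95 after tamoxifen and from 4.39 to 6.28 in controls. Without tamoxifen array 4, 3 S phase genes were called.

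Folding genes of the secretory pathway fell in part, while Pgc, which lay near the top of the scale, and Cblif were not called. Sdf2l1, a cofactor of the chaperone BiP, was 8.52, 8.39 and 8.16 in controls and 6.32, 6.65, 6.90 and 7.61 after tamoxifen, without overlap (-1.48 ± 0.25, adjusted p = 0.0026). Pdia6, a disulfide isomerase, fell by 0.90, from 9.09, 9.34 and 9.08 to 8.23, 7.98, 8.12 and 8.73, and missed the threshold only without control array 2 (0.052). Derl3, a channel component for removal of misfolded proteins, fell by 1.69 and lost its call without tamoxifen array 1 or control array 2 (0.052 to 0.11). Ero1b, the oxidase of endocrine and exocrine cells, fell by 1.32 and lost its call without tamoxifen arrays 1 or 2 or control arrays 1 or 2 (0.070 to 0.12). P4hb, protein disulfide isomerase, fell by 0.72 and lost its call without tamoxifen array 1 or control arrays 2 or 3 (0.081 to 0.20).

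These 5 were the called genes of 37 folding genes, of which 30 lay below 0, with a median of -0.30 and 0 rises. The count was 1 without control array 2 and 7 without tamoxifen array 4. The mean level of the list was 8.32 to 8.45 on the tamoxifen arrays and 8.53 to 8.84 on the controls, groups that did not overlap. Xbp1, which controls many of these genes, was 9.19 to 9.71 against 9.39 to 9.62 (-0.04 ± 0.18). In low cells 21 of the 37 fell, with a median of -0.69.

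Bhlha15 fell by 1.64 ± 0.36 (adjusted p = 0.018). Its levels were 7.16, 7.92 and 8.12 in controls and 5.04, 5.59, 6.44 and 7.29 after tamoxifen, so that tamoxifen array 4 overlapped the controls. The call was lost without tamoxifen array 2 or control arrays 2 or 3 (0.058 to 0.078). With the potassium channel subunit Kcne2, Bhlha15 made up the 2 called genes of 19 chief cell markers (median -0.21), 0 without tamoxifen array 2 or control array 2. Of the 19, 16 lay below 0 and 3 above. The mean level of the list was 6.65 to 6.89 on the tamoxifen arrays and 6.99 to 7.31 on the controls, without overlap. In low cells 6 of the 19 fell and 0 rose, with a median of -0.27. Kcne2, which parietal cells also use, fell by at least 2.77-fold to background and lost its call without tamoxifen arrays 1 or 2 or control arrays 1 or 2 (0.056 to 0.11). It averaged 5.78 in control high, 7.53 in low and 7.06 in negative cells, against 7.73, 8.14 and 5.45 for Bhlha15. The fall of Kcne2 can thus not be assigned to chief cells. Of 33 secretory vesicle genes 4 fell and none rose (median -0.14), with 0 calls without tamoxifen array 2 and 5 without tamoxifen array 4.

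Promoter windows of 3 of the falling folding genes are shown because each holds the ER stress response element, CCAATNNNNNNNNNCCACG on either strand, the site of ATF6 and XBP1 on folding genes. Capitals mark the element, which is read on the opposite strand in Derl3 and Ero1b. The windows are Derl3 at chr10:75893148-75893447, Pdia6 at chr12:17266339-17266638 and Ero1b at chr13:12565633-12565932, all on the plus strand (GRCm38.p6, RefSeq). The elements start 156, 98 and 201 bases before the transcript start.
Derl3: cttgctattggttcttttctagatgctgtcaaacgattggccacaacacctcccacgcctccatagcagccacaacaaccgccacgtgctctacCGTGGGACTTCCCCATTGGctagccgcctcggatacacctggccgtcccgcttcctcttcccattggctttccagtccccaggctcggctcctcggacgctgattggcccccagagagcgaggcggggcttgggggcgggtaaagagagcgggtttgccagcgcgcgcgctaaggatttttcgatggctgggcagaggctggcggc
Pdia6: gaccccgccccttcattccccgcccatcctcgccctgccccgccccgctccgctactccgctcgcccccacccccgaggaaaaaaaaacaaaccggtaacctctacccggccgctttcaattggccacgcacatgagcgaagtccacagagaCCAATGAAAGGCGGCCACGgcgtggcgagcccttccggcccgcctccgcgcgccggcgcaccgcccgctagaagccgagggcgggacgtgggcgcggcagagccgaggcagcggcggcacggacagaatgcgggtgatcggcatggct
Ero1b: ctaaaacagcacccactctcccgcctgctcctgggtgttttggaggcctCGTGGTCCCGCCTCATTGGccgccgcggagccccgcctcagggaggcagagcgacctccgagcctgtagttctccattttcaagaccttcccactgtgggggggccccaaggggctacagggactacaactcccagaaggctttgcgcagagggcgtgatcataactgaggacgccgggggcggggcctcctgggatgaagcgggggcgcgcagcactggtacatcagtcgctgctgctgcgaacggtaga
The element was found for 29 of the 16990 genes with a window (0.171%), for 0 of the 280 rising and for 3 of the 170 falling genes. It was present in 10 of the 30 folding genes with a window, all 10 below 0 with a median of -0.39 and 3 called. The 20 folding genes without it had a median of -0.24, 15 below 0 and 2 called. The 19 genes outside the folding list that carried the element had a median of 0.08 and none was called. These are descriptions of letters in a window, with no test.

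Cholesterol synthesis genes were lower in part. Hmgcs1, which makes the precursor of mevalonate, fell by 1.18, from 10.42, 9.43 and 9.35 to 8.14, 8.76, 8.76 and 8.56, and lost its call without tamoxifen array 1 or control array 1 (0.053 to 0.12). Insig1, a sterol sensor induced by the same factor, fell by 0.83 and lost its call without tamoxifen arrays 1 or 2 or control arrays 1 or 2 (0.072 to 0.14). Of 23 genes of the pathway 3 fell, none rose and 19 lay below 0 (median -0.39). The count was 0 without tamoxifen array 1 or control array 1 and 7 without tamoxifen array 4.

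Blm, the second-largest fall among the named genes after the parietal Atp4b, encodes the RecQ helicase of DNA repair that is lost in Bloom syndrome. Its levels were 7.50, 8.50 and 7.81 in controls and 5.00, 5.05, 4.50 and 4.92 after tamoxifen, and the lowest control lay far above the highest tamoxifen array. The 8.37-fold fall (-3.07 ± 0.27, adjusted p = 2.5e-06) was called in every leave-one-out fit and on the 7 arrays alone. Of 29 repair helicase and recombination genes only Blm fell, and Nbn, of the break-sensing complex, rose by 1.27 ± 0.28, a call lost without control array 1 (0.12). Over that list the median was 0.09.

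**Figure D4:**
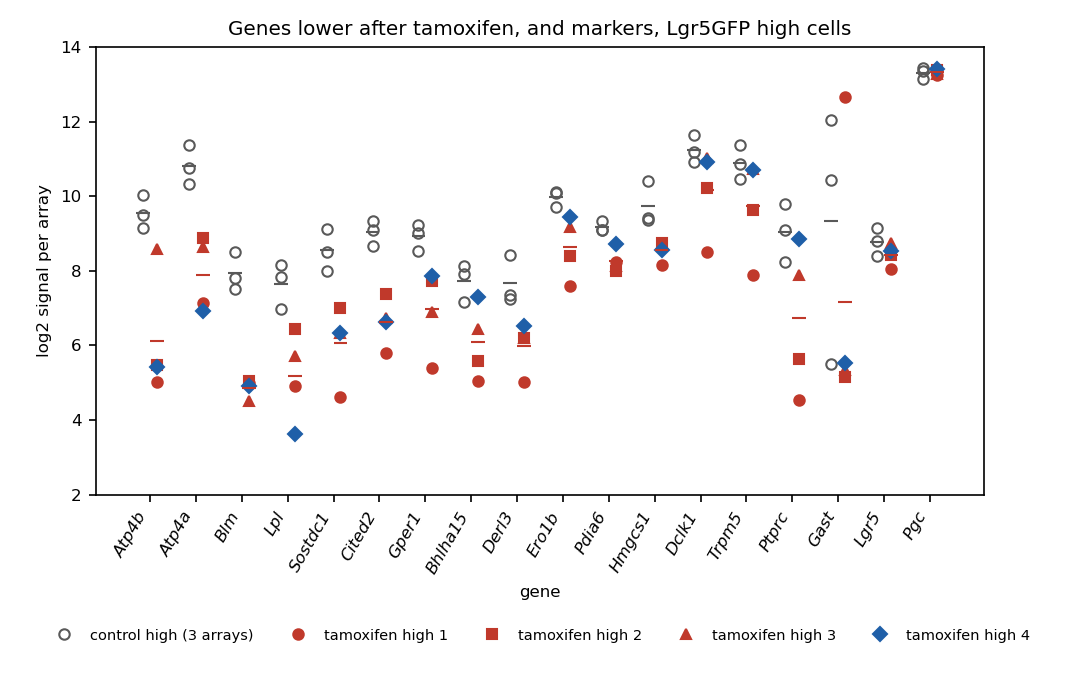
Log2 level (vertical axis) on each of the 4 tamoxifen and 3 control Lgr5GFP high arrays (points, with a bar for each group mean) for genes that fell and for marker genes, of which Dclk1, Trpm5, Ptprc, Gast, Lgr5 and Pgc were not called. The 4 tamoxifen points of Blm lie between 4.50 and 5.05, and tamoxifen array 3 stands apart for Atp4b at 8.59.

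The proton pump of parietal cells fell in RNA from the high gate. Atp4b, its beta subunit, was 10.04, 9.49 and 9.15 in controls and 5.01, 5.48, 8.59 and 5.42 after tamoxifen, with array 3 far above the other tamoxifen arrays (-3.43 ± 0.65, adjusted p = 0.0069). Atp4a, the catalytic subunit, was 10.32, 11.38 and 10.76 and then 7.14, 8.89, 8.64 and 6.93 (-2.92 ± 0.45). Neither overlapped. Of 20 parietal markers 3 fell and none rose, the median was -0.09, and the other 17 were not called. Of the 20, 13 lay below 0 and 7 above. The mean level of the list, Atp4a and Atp4b included, was 5.77 to 6.28 on the tamoxifen arrays. On the controls it was 6.48 to 6.504, without overlap. In low cells 6 of the 20 fell and 0 rose, with a median of -0.75. Kcnq1 and Slc26a7, a channel and an exchanger of acid secretion, differed by 0.32 ± 0.34 and 0.04 ± 0.22 in high cells. Ckb, a creatine kinase, fell by 1.20 and lost its call without tamoxifen arrays 1 or 2 or control arrays 1 or 2 (0.062 to 0.17).

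Several secreted and signalling genes were among the falls. Lpl, lipoprotein lipase, was 6.97, 8.17 and 7.83 in controls and 4.91, 6.45, 5.72 and 3.63 after tamoxifen (-2.48 ± 0.47). Sostdc1, a secreted antagonist of BMP and Wnt ligands, was 8.004, 9.12 and 8.52 and then 4.61, 6.999, 6.33 and 6.34 (-2.48 ± 0.41). Cited2, a transcription cofactor that estrogen and hypoxia can induce, was 8.68, 9.34 and 9.10 and then 5.81, 7.37, 6.74 and 6.64 (-2.40 ± 0.31, adjusted p = 0.00032). None of these 3 overlapped between the groups, which was a condition for a place among the largest falls. Pcdh20, a protocadherin, fell by 2.28 ± 0.38, and Necab1, a neuronal calcium-binding protein, by 2.06 ± 0.33. Igfbp5, which binds insulin-like growth factors, fell at least 3.37-fold and lost its call without control array 1 (0.051). Psca, a surface antigen of gastric epithelium and 1 of 12 surface pit cell markers, fell by 0.91 and lost its call without control arrays 2 or 3 (0.058 to 0.095). Vsig1, the other called gene of those 12, went the other way. It rose by 1.03 and lost its call without tamoxifen array 1 or control arrays 1 or 2 (0.075 to 0.18). The median of that list was -0.07.

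Of 23 estrogen receptor genes and targets 3 were called, against 2.73% of all genes tested, the share that applies to every list. Other lists held 7 of 22 (metaplasia and injury), 8 of 28 (immediate early) and 1 of 27 (interferon response). Tamoxifen binds estrogen receptors, and Esr1, which encodes the main one, lay at 3.92 to 4.37 on the tamoxifen arrays and 3.87 to 4.35 on the controls, around background. In this list 1 gene rose (Krt19) and 2 fell, Cited2 and Gper1. Gper1, a membrane estrogen receptor, fell by 1.96 ± 0.43 and lost its call without control array 2 (0.080). In the BMP and TGF-beta list of 34 genes 1 rose and 3 fell, with 1 call without tamoxifen array 2 or control array 2. Bmp2, a ligand, fell by 1.12 and lost its call without tamoxifen arrays 1 or 2 or control arrays 1 or 2 (0.052 to 0.11). None of 22 Notch pathway genes was called by limma (1 at an unadjusted p under 0.05, 1 without tamoxifen array 4). Of 31 Wnt target and stem cell genes 1 rose and 2 fell, with 1 call without tamoxifen array 2 or control array 2. Sox9, a progenitor factor, differed by -0.12 ± 0.28.

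Markers of tuft cells, the chemosensory cells of the gland, were lower with wide spread. All 12 lay below 0, from -1.87 to -0.94 with a median of -1.15, and only Il25 was called, a call lost without tamoxifen arrays 1 or 2 or any 1 of the controls (0.053 to 0.24). The mean level of the list was 7.51, 8.97, 9.93 and 10.01 on tamoxifen arrays 1 to 4 and 10.80, 10.29 and 10.01 on the controls. Arrays 3 and 4 thus lay at the lower edge of the controls and array 1 far below it. Without array 1 the list median was -0.62 and without array 3 it was -1.47. In low cells 11 of the 12 fell, with a median of -3.00. In negative cells the median was -1.04 and 0 were called. Dclk1 read 8.51, 10.22, 11.02 and 10.93 after tamoxifen and 11.63, 11.18 and 10.91 in controls (-1.07 ± 0.53, adjusted p = 0.32).

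Tamoxifen array 1 also stood apart in endocrine RNA. The mean of 18 endocrine markers was 6.80 there, 4.95 to 5.55 on the other tamoxifen arrays and 5.29 to 5.73 on the controls, and none was called by limma (1 at an unadjusted p under 0.05). The mean of 8 mucous neck markers was 10.03 on that array, 8.27 to 9.09 on the other tamoxifen arrays and 8.18 to 9.83 on the controls. The part of these marker differences in the results above was not tested. Sprr1a, Mmp7, Clu, Zyx, Cited2 and Blm belong to the 124 genes called in every leave-one-out fit, all of them without overlap between groups. They kept their calls without array 1 by that definition. The part of the marker differences in these genes was not tested either.

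Most of these genes moved the same way in low cells. Of the 606 called genes, 582 had the same sign in low cells and 348 were called there in that direction. Over all genes 8.32% were called in low cells and 2.32% in negative cells, and the share with the same sign was not computed. Calls in the populations come from the same fit with a shared spread for each gene, so they are not independent. The comparisons use separate control arrays, though titles share numbers across the populations. These numbers are read here as sorting runs, which the titles do not state. Deviations of control high arrays correlated with those of the low array of the same run at 0.22 to 0.32 (across genes), and those of tamoxifen high arrays at -0.09 to 0.15. By limma, 0 of the 606 had a called difference between the changes in high and low cells, and 128 had an unadjusted p under 0.05 for it. The direct test of that difference called 6 genes in all (0.0271% of those tested), each called in low cells and none in high cells.

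Hamp, the iron hormone hepcidin, was the largest of these 6. In high cells it stayed at or below background, at 2.24, 2.86, 3.90 and 2.64 after tamoxifen and 2.36, 1.62 and 2.17 in controls. In low cells its mean went from 2.20 to 7.16 and in negative cells from 2.35 to 10.24, so that the change differed by -4.11 ± 0.55 from low cells (adjusted p = 0.0044) and by -7.04 ± 0.55 from negative cells (8.9e-07). Cel, a pancreatic-type lipase, and Sycn, a zymogen granule protein, fell in low cells to the low levels that high cells had in both conditions. For Cel the means were 4.66 and 4.48 in control and tamoxifen high cells and 7.81 and 4.36 in low cells (difference of changes 3.27 ± 0.52). Cd68, Neurl3, a ubiquitin ligase, and Sdcbp2, a syntenin, rose in low cells by 2.79, 2.30 and 2.41 and differed there from the high cells by -2.09, -2.04 and -2.28. With the sorting run as a fixed block the test called 5 genes, 4 of these 6 among them, and Cd68 and Neurl3 missed the threshold (adjusted p = 0.062 and 0.053).

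**Figure D5:**
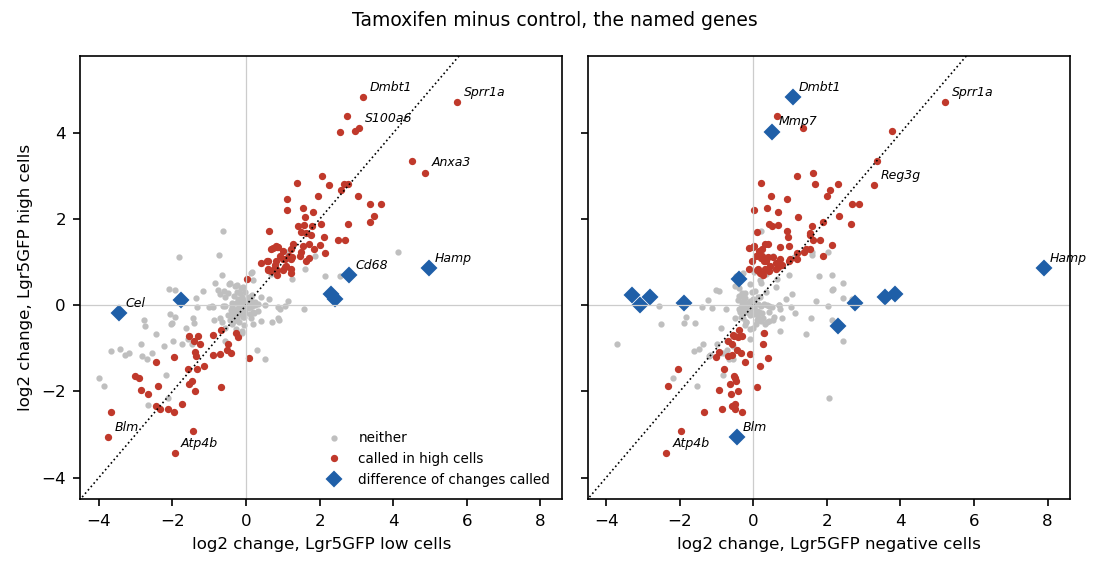
Change with tamoxifen (log2, tamoxifen minus control) of the named genes in Lgr5GFP high cells (vertical axis) against low cells (left panel) and negative cells (right panel), 1 point per gene, with the line of equal change dotted and diamonds for genes whose 2 changes differ by the test. Blm and Dmbt1 lie away from 0 in high and low cells, and Hamp rises by 4.97 in low and by 7.89 in negative cells against 0.86 in high cells.

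Against negative cells the test of the difference called 55 genes (0.248%), 17 of them called in high cells. The count was 32 without tamoxifen array 2, 132 without tamoxifen array 4, and 21 and 14 without control arrays 1 and 2. With the sorting run as a fixed block it was 75, 38 of the 55 among them, and Psrc1, Ahsg and Cpa3 missed the threshold (adjusted p = 0.065, 0.062 and 0.065). Mmp7 rose in high and low cells and reached a mean of 4.03 in negative cells, under the background of the high arrays, a difference of changes of 3.51 ± 0.43 (adjusted p = 0.00040). Dmbt1 differed by 3.77 ± 0.70 (0.023), and here the control levels were unequal: 5.19 in high, 7.24 in low and 9.13 in negative cells, against 10.03, 10.42 and 10.20 after tamoxifen. Blm was 7.93 in control high, 8.74 in control low and 5.76 in control negative cells and 4.87, 4.99 and 5.30 after tamoxifen (difference -2.61 ± 0.38, adjusted p = 0.0044). Its level after tamoxifen was thus near that of negative cells in each population. Psrc1, a spindle protein, rose by 0.60 in high cells and differed by 0.99 (0.043); in the high cells it lost its call without tamoxifen array 3 or control arrays 1 or 2 (0.054 to 0.12).

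The other named differences came from negative cells. Mcpt2, a mast cell protease, and the close paralogs Gsdmc2 and Gsdmc3, whose probes may share signal, fell in negative cells and were under background on all 7 high arrays. Serpina7, Ahsg and Vtn, secreted plasma proteins, rose in negative cells by 3.85, 3.58 and 2.30 and differed in high cells by 0.27, 0.20 and -0.49, none of these called. Sprr1a rose in all 3 populations, by 4.72, 5.74 and 5.22 in high, low and negative cells, and ended lower in high cells (8.96) than in low (11.59) or negative cells (11.53). Its differences between populations were -1.02 ± 0.49 against low and -0.50 ± 0.49 against negative cells, neither past the threshold.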

How the data were processed

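Sorted corpus cells were profiled on 21 arrays. RNA was taken with a micro column kit and amplified as biotin-labelled cDNA, per the labels' protocols. The values deposited by the authors are log2 signal per probe set; the submitters' processing notes name oligo, RMA, limma 3.26.8 and R 3.2.3 without roles, and the array's genome build was not given in the sources used here. Values ran from 0.958 to 13.55, with array medians of 3.95 to 4.25. The table holds 41345 probe sets; 23521 named exactly 1 gene in the platform's gene list, 1814 named several and 16010 were not listed. Each gene was represented by its brightest probe set over the 21 arrays (1082 genes had more than 1), which gave 22180 genes with no filter on level.

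Group means were fitted with limma 3.58.1 in R 4.3.3 (lmFit, eBayes, with 15 residual and 5.27 prior degrees of freedom). Each adjusted p is over all genes and comes from this fit, except where an array left out or a block is named. The script was tested on simulated data. Changes are tamoxifen minus control in log2 with the model's SE. Background was set at 4.31, the level that 95% of the values of 1105 olfactory receptor genes stay under. Where the dimmer group's mean was at or below it, the fold is the brighter group's mean over this background, written as at least that fold. Replicate numbers come from the titles. The other number in each title was read as the sorting run, though the titles do not name it so. Same-numbered tamoxifen and control high arrays did not deviate together (r from -0.18 to -0.02), while control high and low arrays of 1 run did (0.22 to 0.32), so differences between populations are also given with the run as a block. The number of arrays limits the precision. The members, the 51 gene lists, the motifs and the named genes were chosen with earlier results of these data known. Named genes were the 15 largest rises and 15 largest falls among called genes without overlap, predicted genes left out, up to 6 called members of each list by adjusted p, all cell type markers, a short panel, and the 5 largest called differences each way between populations. Rcan1 and Tinag lie outside this rule and were named after their values were seen, to complete the 12 genes called on the high arrays alone. Alternatives were loess normalization, mean of probe sets, trend and robust eBayes, array weights, no dimmest 25% of genes, sorting run or replicate as a block, fewer arrays, a 2-fold minimum and each array left out. Python 3.11.15 with pandas 2.3.3 and matplotlib 3.10.9 made tables and figures.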

Additional observations from a re-analysis of the deposited data

Results flagged for a closer look

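Among 279 named genes, 1 of the 4 tamoxifen high arrays stood far from the other 3 for 20 genes, and chance flags about 1 in 20 groups. Array 4 was the distant one for Lyz1 at 4.75 (others 10.62 to 10.82, controls 4.70 to 5.08), Mt1 at 9.96, Mt2 at 10.08, Bhlhe40, a clock-linked repressor, at 7.10 (others 8.21 to 8.38; call lost without tamoxifen arrays 1 or 2 or control arrays 1 or 2), Kdr, an endothelial receptor, at 4.45 and Vtn at 5.21. For Lyz1, Mt2 and Vtn it read within the control range. Array 1 stood apart for Gast at 12.66 (others 5.15 to 5.54), Pcsk1, a prohormone convertase, at 6.10 and Tph1, which makes serotonin, at 6.88 (others 3.42 to 3.84). The same array was apart for Tff2, the neck cell trefoil peptide, at 12.63, Ifitm3 at 11.11, Tm7sf2, a sterol reductase, at 5.42 (call lost without that array or control arrays 1 or 2) and Krt18 at 11.53. Array 2 was apart for Junb at 8.19, Agr2, an isomerase of mucous cells, at 9.91, Cpe, a peptide-processing enzyme, at 8.73, Mcpt2 at 3.11 and Emcn at 2.93, and the last pair lay under background. Array 3 was apart for Atp4b at 8.59 (others 5.01 to 5.48, controls 9.15 to 10.04) and for Klf4, an epithelial factor, at 7.85.

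The change with tamoxifen differed between high and low cells by the interaction term in limma for 6 genes. The differences, high minus low, were -4.11 for Hamp, -2.28 for Sdcbp2, -2.09 for Cd68, -2.04 for Neurl3, 1.88 for Sycn and 3.27 for Cel. Against negative cells the named differences were 3.77 for Dmbt1, 3.51 for Mmp7, 0.99 for Psrc1 and -2.61 for Blm, all 4 called in high cells. The other 9 named genes were not called in high cells: 3.52 for Mcpt2 and 1.93 for Cpa3, both mast cell proteases, 3.08 for Gsdmc2, 3.01 for Gsdmc3, -7.04 for Hamp, -3.58 for Serpina7, -3.38 for Ahsg, -2.78 for Vtn and -2.71 for Pwwp3b.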

How the results depend on the processing

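Against 606 called genes in high cells, leaving out 1 array gave 215 to 1702, fitting only the 7 high arrays gave 12 (2419 at an unadjusted p under 0.05, against 3748 with all arrays), a 2-fold minimum gave 335 and the replicate block gave 1128; 590 of the 606 were shared with the last. The other 6 settings gave 581 to 711. The replicate numbers share only a number between tamoxifen and control high arrays, whose deviations did not correlate. For high minus low (6 genes) leaving out 1 high array gave 4 to 9, the replicate block 11, a random sorting run block 13 and a fixed one 5, of which 3 were positive against 2 of the 6. For high minus negative (55 genes) leaving out 1 array gave 14 to 132, array weights 172, the sorting run as a random block 84 and fitting only the populations compared 16. The sorting run as a fixed block gave 75, with 53.3% positive against 40.0%, and leaving out control array 3 gave 53.5%. No named gene's change in high cells turned its sign while called. The share of called genes that rose was 62.0% and went to 51.9% without tamoxifen array 3 and 83.3% of the 12 on the high arrays alone. Of 118 called named genes, 104 to 118 kept their call under the 7 settings that kept all 21 arrays and set no fold minimum, 50 to 117 with 1 array left out and 10 on the high arrays alone. Why the counts moved was not tested.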
